A study of Mus musculus with 4 samples.

Results

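The comparison described here is between the array labelled 8.5 Gy and the array labelled 0 Gy in a 4-array series of Balb/c mouse tissue labelled thyroid. The sample titles name 131I, the radioactive isotope of iodine, and the labels give an absorbed dose and a time of 24 h for each sample. The 8.5 Gy sample was labelled as Balb/c mouse thyroid at an absorbed dose of 8.5 Gy, the 0 Gy sample as Balb/c mouse thyroid at an absorbed dose of 0 Gy, and the other 2 arrays hold samples at 0.85 and 17 Gy. Total RNA was measured on Illumina expression BeadChips, which report a fluorescence intensity and a detection p-value for each probe. Not given in the sources used here are the age, sex and number of mice behind a sample, how the isotope was given, and what the 0 Gy mouse received. Each side of the comparison is 1 array, so every difference below is a description of these arrays, with no replicate check and no test, and its precision is limited by that number of arrays.

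Members were the genes whose probe had a detection p-value under 0.01 on at least 1 of both arrays. Of 16593 genes named on the platform, 7862 met this rule (47.4%): 6786 were detected on both arrays, 634 on the 8.5 Gy array only and 442 on the 0 Gy array only. A gene was read from its probe with the highest mean intensity over the 4 arrays. The last gene inside the limit was Ftmt, at a detection p-value of 0.0089, and the first outside it was Ccl7, at 0.0102. Intensities are printed as deposited, on the linear scale and with their background, whose mean was 97.2 on the 8.5 Gy array and 86.0 on the 0 Gy array. Summed intensities hold that background for every probe and were not normalized. Differences are 8.5 Gy minus 0 Gy, on the log2 scale, of values corrected for that background and quantile-normalized over the 4 arrays. A fold is that difference on the linear scale and can therefore exceed the ratio of the printed intensities. Where 1 of both arrays did not detect a gene, the fold is a bound on this scale and is written as "at least". It is no minimum on other scales. In the authors' deposited normalized values, for example, the log2 difference was 8.22 instead of 10.28 for Pvalb and -0.75 instead of -1.58 for Irf7.

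Radioiodine reaches the thyroid through the sodium iodide symporter, encoded by Slc5a5, and is bound to thyroglobulin, encoded by Tg. Its beta particles deposit their energy within a short range, and ionizing radiation is known for DNA breaks, p53 activation and interferon and inflammatory responses. Follicular cells in this gland are surrounded by capillaries, connective tissue, fat and the strap muscles of the neck.

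The labelled tissue was checked against its defining genes. Of 21 thyrocyte markers with a probe, 7 were detected on the 8.5 Gy array and 7 on the 0 Gy array, and Tg, Slc5a5, Pax8, Nkx2-1 and Foxe1 were detected on neither. Tshr, also on that list, was detected on both, with 142 at 8.5 Gy and 137 at 0 Gy. The 7 measured markers had a median log2 difference of -0.60 (-0.28 in the authors' deposited normalized values), and 1, Ctsk, was 2-fold lower. Tg stood at 92 at 8.5 Gy and 84 at 0 Gy, and Slc5a5 at 92 and 87 in the same order, all within the background. Genes of fat cells were among the bright ones on both arrays. Adipoq, the adipokine adiponectin, had 10840 at 8.5 Gy and 9339 at 0 Gy, and Ucp1, the uncoupling protein of brown fat, 16709 at 8.5 Gy and 8411 at 0 Gy. The undetected follicle genes and the bright fat genes thus went against a label of thyroid follicle tissue, and the samples are called by their dose below.

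Most genes stood close together on both arrays. The median log2 difference over the 7862 genes was -0.04, and 6118 genes (77.8%) lay within 1.5-fold. At least 2-fold higher at 8.5 Gy were 207 genes (2.63%), and at least 2-fold lower were 285 (3.63%). In the authors' deposited normalized values the split was 102 higher and 91 lower, and without background correction 84 higher and 71 lower. Skeletal muscle genes, the union of 5 lists, made up 72 of the higher genes and 0 of the lower ones. Among the 7748 genes outside those lists, 135 were higher (1.74%) and 285 lower (3.68%). Of the 135, 71 were detected on the 8.5 Gy array only, and 97 were still 2-fold higher when taken at their bound. Of the 285, 76 were detected on the 0 Gy array only, and 233 were 2-fold lower at their bound. Another detected probe existed for 29 of the 135, and all such probes were higher for 25 and 2-fold higher for 9. It existed for 53 of the 285, and all such probes were lower for 43 and 2-fold lower for 16. At the 2-fold limit Fbxo32 was just inside with 2.0-fold and Eif3j1 just outside with 1.996-fold higher, and Slc4a3 was just inside with 2.002-fold and Vcam1 just outside with 1.997-fold lower.

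**Figure D1:**
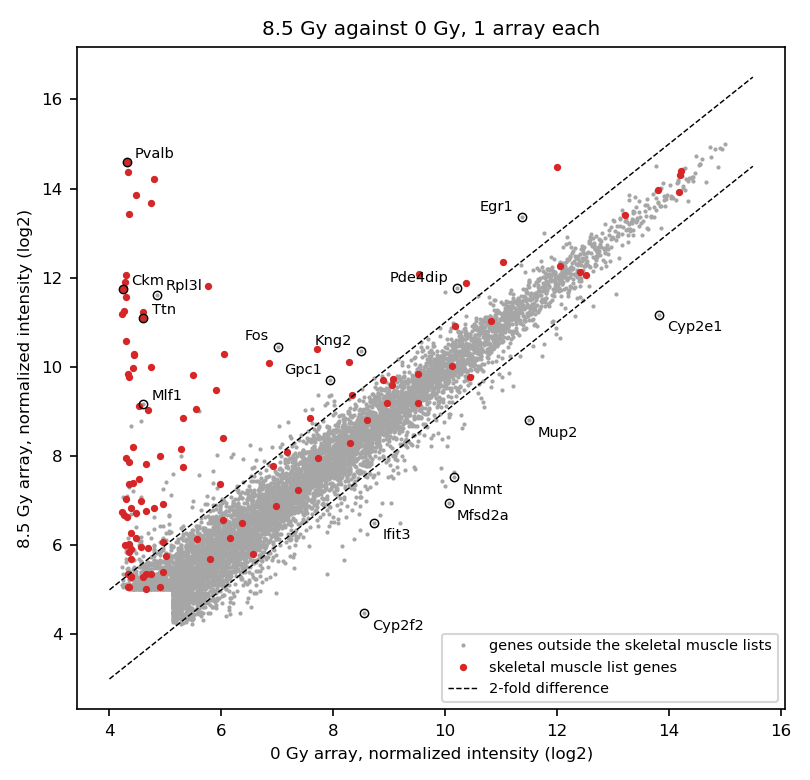
Normalized intensity (log2) of 7862 genes on the 8.5 Gy array (vertical axis) against the 0 Gy array (horizontal axis), 1 array each; red points are the 114 measured skeletal muscle list genes and dashed lines mark a 2-fold difference. Many of the muscle genes run up the left edge, where the 0 Gy array gives no detectable signal, while Cyp2e1, Mup2 and Nnmt lie below the band among genes that are well detected on both arrays.

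Outside the muscle lists the lower side was led by enzymes and carriers known from liver metabolism of foreign compounds. Of 32 measured genes on a list of detoxification enzymes and major urinary proteins, 9 were 2-fold lower at 8.5 Gy and 0 higher, with a median log2 difference of -0.63 beside -0.04 over all genes compared. Cyp2e1, a cytochrome P450 that oxidizes ethanol and acetone, had 2528 at 8.5 Gy and 12227 at 0 Gy. That is 6.29-fold lower, in the brightest of the lower genes. Cyp2f2, a P450 of airway and liver, had 101 at 8.5 Gy, which was not well above background, and 407 at 0 Gy, at least 11.6-fold lower. Nnmt, which methylates nicotinamide, had 267 at 8.5 Gy and 1082 at 0 Gy (6.21-fold lower, log2 -2.63), and its other probe was at -2.12.

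Pon1, a serum esterase carried on lipoproteins, had 134 at 8.5 Gy and 335 at 0 Gy (5.77-fold lower). The carboxylesterase gene Ces1f had 480 and 1169 in that order (3.18-fold lower), and the flavin monooxygenase gene Fmo5 121 and 171 (2.93-fold lower). The major urinary proteins bind pheromones in mouse urine, and their genes are near-identical copies, so which of them gave the signal is uncertain. The probe named Mup2 had 531 at 8.5 Gy and 2544 at 0 Gy (6.48-fold lower), and the probe named Mup6 258 and 938 (5.65-fold lower). Gsta3, a glutathione transferase counted on another list, had 821 at 8.5 Gy and 1874 at 0 Gy (2.91-fold lower, with -0.47 at its other probe).

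Of the 32 members, 27 were below 0 and 5 above it. Aldh1a1, a retinal dehydrogenase, was at 0.37 on the log2 scale, Cyp27a1, a sterol hydroxylase, at 0.24 and Adh1, an alcohol dehydrogenase, at 0.01. Fmo1, another flavin monooxygenase, had 5802 at 8.5 Gy and 4609 at 0 Gy, at -0.05. The lowest members also stood below the other arrays: Cyp2e1 had 9853 at 0.85 Gy and 13365 at 17 Gy, and Mup2 2771 at 0.85 Gy and 3624 at 17 Gy. These comparisons share the 8.5 Gy array, so a departure of that array enters each of them.

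Interferon-stimulated genes were lower at 8.5 Gy. Type I and type II interferons act through STAT factors on genes that restrict viruses and bind nucleic acids, and the interferon-stimulated response element (ISRE) is a promoter motif of many of them. Of 55 listed genes with a probe, 34 were measured, and 21, among them Mx1, Cxcl10 and Ifit1, were detected on neither array. Of the 34, 33 were below 0, 12 were 2-fold lower and 0 higher, and the median log2 difference was -0.75 (-0.50 in the authors' deposited normalized values), beside -0.04 over all genes. In bulk tissue, fewer cells of a type and less RNA per cell cannot be told apart.

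Ifit3, an RNA-binding antiviral protein, had 175 at 8.5 Gy and 454 at 0 Gy (4.68-fold lower), but its other probes were at -0.36 and -0.32, with intensities near the background. Oasl2, of the oligoadenylate synthetase family, had 208 at 8.5 Gy and 536 at 0 Gy (4.21-fold lower, with -0.21 at its other probe). The GTPase gene Igtp had 281 at 8.5 Gy and 575 at 0 Gy (2.93-fold lower). Bst2, which tethers budding virus to the cell, had 117 and 159 in that order (2.87-fold lower). Ifi27l2a was the brightest of the 12, with 3519 at 8.5 Gy and 7265 at 0 Gy (2.65-fold lower).

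Regulators of the response spanned a range. Irf7, a factor that amplifies type I interferon, was not well above background at 8.5 Gy (103) and had 134 at 0 Gy, at least 2.17-fold lower. Irf9, the DNA-binding part of the interferon-activated complex, was at -0.86 on the log2 scale, and its partner Stat2 at -0.38. Irf1 had 1859 at 8.5 Gy and 1545 at 0 Gy and was within 1.5-fold. Ifngr2, a chain of the interferon gamma receptor, had 189 at 8.5 Gy and 388 at 0 Gy (3.36-fold lower), with 0.93 and -0.02 at its other probes. Ifi27, with 20752 at 8.5 Gy and 19326 at 0 Gy, stood within 1.5-fold.

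The interferon genes that moved together are shown with their promoter sequence, to let the ISRE be seen. RefSeq promoter windows on GRCm38.p6, running from 250 bases before the start site to 50 after it, were at hand for 26 of the 34 measured genes. The motif GAAANNGAAA was searched on both strands, overlapping matches included. It lay in the windows of 15 of the 26 (57.7%), in 5 of the 9 lower genes with a window (55.6%), and in 236 of 6410 compared genes with a window (3.68%). The share was thus alike in the lower members and in all measured members. The lower genes with a match were Ifit3, Bst2, Igtp, Gbp7 and Oas1g, and the windows of Oasl2, Irf7, Lgals3bp and Ifi47 did not hold these letters. Gbp7 was at -1.50 on the log2 scale, with -0.29 at its other probe. Capitals mark the match, 5′ to 3′ on the gene's strand. The Ifit3 window is chr19:34583279-34583578 on the plus strand, with matches that begin 156 and 122 bases before the start site. The Bst2 window is chr8:71537423-71537722 on the minus strand, with overlapping matches at 130 and 124 bases. The Igtp window is chr11:58199306-58199605 on the plus strand, with a match at 34 bases, and the Gbp7 window is chr3:142530086-142530385 on the plus strand, with a match at 53 bases.
Ifit3: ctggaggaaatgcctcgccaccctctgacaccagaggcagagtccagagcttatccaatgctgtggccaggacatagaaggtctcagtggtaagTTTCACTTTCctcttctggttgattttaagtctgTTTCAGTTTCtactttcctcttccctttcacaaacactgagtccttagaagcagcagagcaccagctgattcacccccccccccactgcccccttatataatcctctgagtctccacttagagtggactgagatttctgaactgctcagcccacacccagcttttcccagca
Bst2: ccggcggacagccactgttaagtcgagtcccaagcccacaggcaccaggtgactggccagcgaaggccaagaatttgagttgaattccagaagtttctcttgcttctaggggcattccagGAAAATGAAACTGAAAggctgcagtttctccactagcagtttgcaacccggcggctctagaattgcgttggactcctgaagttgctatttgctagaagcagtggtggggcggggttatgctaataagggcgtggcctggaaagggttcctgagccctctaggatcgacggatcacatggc
Igtp: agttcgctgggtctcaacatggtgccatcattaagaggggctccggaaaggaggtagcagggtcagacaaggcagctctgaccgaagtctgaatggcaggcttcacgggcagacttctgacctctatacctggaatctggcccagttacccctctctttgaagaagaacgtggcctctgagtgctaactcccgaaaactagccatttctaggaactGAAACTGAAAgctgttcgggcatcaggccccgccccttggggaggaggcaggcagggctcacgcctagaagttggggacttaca
Gbp7: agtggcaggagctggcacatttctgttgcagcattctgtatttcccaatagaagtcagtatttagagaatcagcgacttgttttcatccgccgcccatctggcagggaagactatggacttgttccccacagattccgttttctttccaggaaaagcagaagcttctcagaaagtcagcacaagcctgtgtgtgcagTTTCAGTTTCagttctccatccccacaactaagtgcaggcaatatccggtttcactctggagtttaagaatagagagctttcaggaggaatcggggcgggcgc

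Genes of MHC class I, which present peptides to cytotoxic T cells, were lower in part. Of 18 measured genes, 4 were 2-fold lower and 0 higher, with a median of -0.43 (-0.27 in the authors' deposited normalized values). In the deposited normalized values all 4 fell short of 2-fold, with H2-T23 at -0.9991, H2-D1 at -0.94, H2-Q7 at -0.69 and Nlrc5 at -0.63. The classical heavy chain gene H2-D1 had 269 at 8.5 Gy and 448 at 0 Gy (2.26-fold lower). H2-T23, a nonclassical class I gene, had 1040 at 8.5 Gy and 1805 at 0 Gy (2.17-fold lower, with -0.82 at its other probe). Nlrc5, the transactivator of class I genes, had 130 and 163 in that order (2.18-fold lower). H2 genes are close copies, so the member behind a signal is uncertain. B2m, the light chain of all class I molecules, had 8847 at 8.5 Gy and 10080 at 0 Gy, at -0.56 on the log2 scale, and 13 of the 18 members were below 0. Among peptide loading and immunoproteasome genes, Psmb8 was at -0.71, Tap1 at -0.63, Psmb9 at -0.60, Psmb10 at -0.29 and Tap2 at -0.15, while Tapbp and Psme2 were at 0.49 and 0.29. None of 8 measured MHC class II genes was 2-fold apart, and their median was -0.05.

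Complement genes, whose products mark cells and microbes for removal, held 3 lower and 0 higher among 13 measured, with a median of -0.48. C2, a protease of the classical pathway, had 294 at 8.5 Gy and 698 at 0 Gy (3.36-fold lower). Cfb, its counterpart in the alternative pathway, had 131 at 8.5 Gy and 198 at 0 Gy (2.91-fold lower). The inhibitor Cd55 had 121 and 159 in that order (2.59-fold lower), whereas another inhibitor, Cd59a, had 5616 at 8.5 Gy and 4418 at 0 Gy, at -0.03.

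Immune cell markers stood apart in either direction. Summed over 31 macrophage markers with a probe, intensity was 12454 at 8.5 Gy and 12166 at 0 Gy, with 22 detected at 8.5 Gy and 24 at 0 Gy. The sums hold the background of every probe, with a mean of 97.2 at 8.5 Gy and 86.0 at 0 Gy, so they do not show equal amounts. Of 25 measured, 4 were 2-fold lower and 0 higher, with a median of -0.42, among them the lectin gene Clec10a (237 at 8.5 Gy, 419 at 0 Gy). Of the 4, Gpnmb and Timd4 were detected at 0 Gy only, and at their bounds were at least 1.79-fold and 1.34-fold lower. Lyz2, the lysozyme gene of myeloid cells, was at 0.62 and Adgre1, the F4/80 antigen, at -0.22. The part of macrophages in the interferon, complement and MHC differences was not tested. Chemokine genes held 2 lower and 1 higher among 17: Ccl9 was 2.92-fold and Ccl8 2.78-fold lower, and Cxcl1 at least 2.43-fold higher. Mast cell markers had 6 of 7 measured below 0, with a median of -0.83 (-0.70 with bounds), and Cpa3 was 2.35-fold lower. Only 4 of 22 T and NK cell markers with a probe were measured, with a median of -0.89 (-0.60 with bounds). Prf1 was 2.32-fold lower and Ccl5 at 0.48.

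Of 18 neutrophil markers with a probe, 5 were detected at 8.5 Gy and 4 at 0 Gy, and Elane, Mpo, Camp and Ngp were detected on neither array. S100a8, a subunit of calprotectin, had 368 at 8.5 Gy and 164 at 0 Gy (2.74-fold higher), and its partner S100a9 217 and 123 (2.32-fold higher). Both stood higher still at 0.85 Gy, with 483 and 324. Of the 18 markers 6 were measured, of which 3 were 2-fold higher and 1 lower, and their median of 1.0 became 0.38 with bounds. Ltf, the iron-binding lactoferrin, was at least 1.70-fold higher, whereas the decoy receptor gene Il1r2, not well above background at 8.5 Gy, was at -1.01 on the log2 scale and the protease gene Mmp9 at -0.74.

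Extracellular matrix genes were lower at 8.5 Gy than at 0 Gy. Of 14 measured collagens, 4 were 2-fold lower and 0 higher, with a median of -0.70, and of 55 other matrix and remodelling genes 15 were lower and 2 higher, with a median of -0.74. The fibrillar collagen gene Col3a1 had 265 at 8.5 Gy and 545 at 0 Gy (2.95-fold lower, with -1.05 at its other probe). Lum, a proteoglycan that spaces collagen fibrils, had 297 at 8.5 Gy and 930 at 0 Gy (4.57-fold lower). The secreted adhesion protein gene Spon2 had 284 and 1081 in that order (5.72-fold lower).

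Among remodelling enzymes, the stromelysin gene Mmp3 had 124 at 8.5 Gy and 284 at 0 Gy (5.77-fold lower, with -0.68 and -1.52 at its other probes). Cpxm1, of the metallocarboxypeptidase family, had 153 at 8.5 Gy and 368 at 0 Gy (4.71-fold lower). Among basement membrane genes the size differed: Nid1 was 2.81-fold and Col18a1 2.48-fold lower, while Col4a1, with 2308 at 8.5 Gy and 2419 at 0 Gy, was at -0.39 on the log2 scale. The 2 higher genes were Ncan, a brain proteoglycan (389 at 8.5 Gy, 153 at 0 Gy, 3.35-fold higher), and Ccn1, a matricellular immediate early gene.

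Fibroblast and preadipocyte markers were lower beside the matrix genes. Summed over 29 markers with a probe, intensity was 6257 at 8.5 Gy and 7673 at 0 Gy, with 25 detected on each array. Of 25 measured, 24 were below 0, 8 were 2-fold lower and 0 higher, and the median was -0.59. Igfbp6 was 3.03-fold lower, Cd248, a surface protein of stromal cells, 2.72-fold (with -0.25 at its other probe) and Dpp4 2.28-fold. The part of fewer such cells in the matrix difference was not tested. Fgf10, a growth factor of mesenchyme and preadipocytes, had 246 at 8.5 Gy and 981 at 0 Gy (6.33-fold lower, with -1.06 and -2.09 at its other probes).

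Smooth muscle and pericyte genes were apart in both directions. Of 19 measured, 5 were 2-fold lower and 2 higher, 11 were below 0 and 8 above it, and the median was -0.34. Acta2, the smooth muscle actin, had 2486 at 8.5 Gy and 4383 at 0 Gy (2.27-fold lower), and its 3 other probes lay between -1.16 and -1.02. Myh11, the smooth muscle myosin, had 136 and 211 in that order (2.93-fold lower). Mcam, an adhesion molecule, was 2.80-fold lower, with -0.56 and -1.79 at its other probes, and the remaining lower members, Sncg and Aoc3, also stand on the fat cell list given further on. The 2 higher members, Tpm2 and Des, are also skeletal muscle genes. Of 27 measured endothelial genes, 3 were lower and 0 higher, with a median of -0.32, and Pecam1, the junction protein CD31, was 2.06-fold lower (-0.54 at its other probe).

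**Figure D2:**
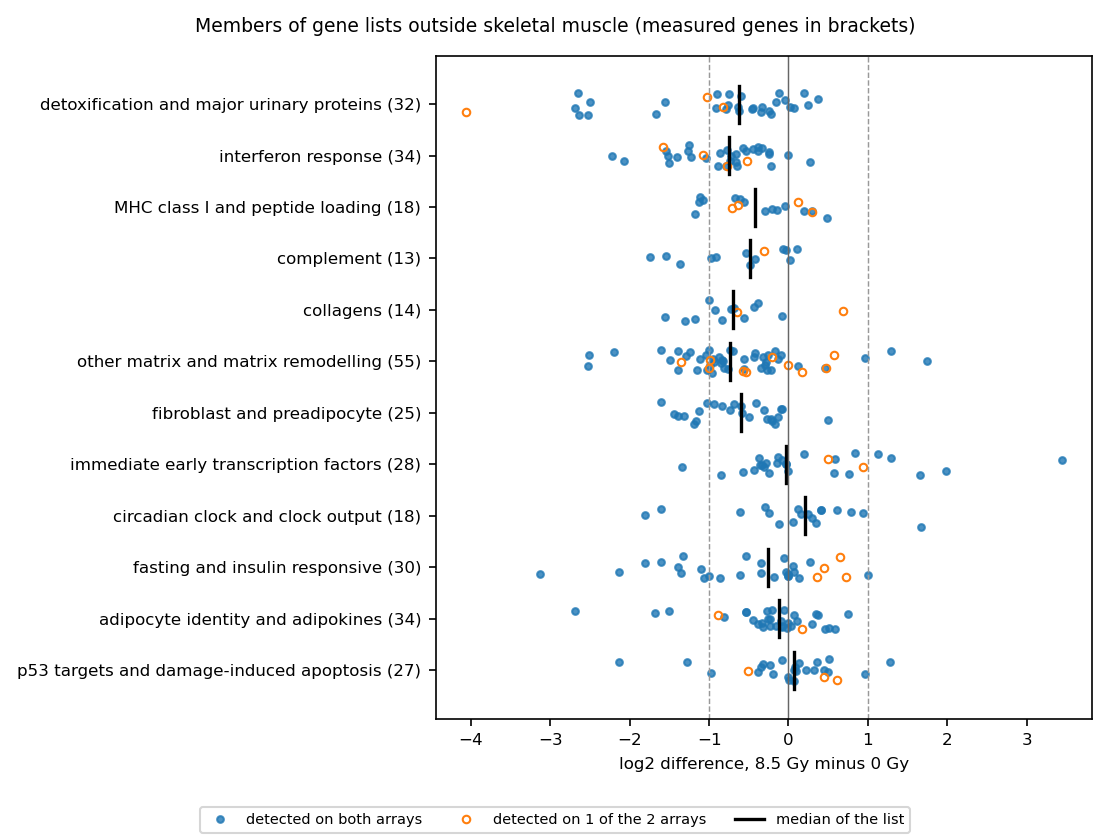
Log2 difference, 8.5 Gy minus 0 Gy, of each measured member of 12 gene lists; filled points were detected on both arrays, open points on 1 of both, black bars are list medians and dashed lines mark 2-fold. The medians of the detoxification, interferon, collagen, other matrix and fibroblast lists lie between -0.75 and -0.59, while those of the immediate early, adipocyte and p53 lists lie near 0 with single members far out.

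Immediate early genes, which are transcribed within minutes of a stimulus without new protein, showed a few strongly higher members and a median near 0. Of 28 measured, 5 were 2-fold higher and 1 lower, and the median was -0.03. Fos, a subunit of the AP-1 factor, had 1555 at 8.5 Gy and 186 at 0 Gy (10.9-fold higher). Egr1, a zinc finger factor, had 11776 at 8.5 Gy and 2342 at 0 Gy (3.97-fold higher). Junb, another AP-1 subunit, had 495 and 188 in that order (3.15-fold higher). The nuclear receptor gene Nr4a2 had 322 and 169 (2.18-fold higher), and Ccn1 324 and 159 (2.45-fold higher, with 1.51 and 1.36 at its other probes).

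Other members of the group did not stand with them. Jun had 208 at 8.5 Gy and 212 at 0 Gy, at -0.34 on the log2 scale, Atf3, a stress-induced factor, was at -0.24, and Egr2 at -0.03. Klf2, a factor induced by shear stress in endothelium, was the lower member, with 451 at 8.5 Gy and 906 at 0 Gy (2.54-fold lower). At 0.85 Gy, Egr1 had 10912, Fos 1047 and Junb 560, and at 17 Gy Egr1 had 3449, Fos 259 and Junb 242. For these 3 genes the 0.85 and 8.5 Gy values both lay above those at 0 and 17 Gy. Nr4a2 did not follow them, with 117 at 0.85 Gy and 209 at 17 Gy, and Ccn1 had 275 and 238.

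Clock genes, which cycle over the day, were apart in both directions. Bhlhe40, a repressor in the clock loop, had 3621 at 8.5 Gy and 979 at 0 Gy (3.19-fold higher). Per1 had 290 and 625 in that order (3.04-fold lower, with -1.28 at its other probe), and Noct, a deadenylase with a daily rhythm, 385 and 1002 (3.49-fold lower, with -1.38 at its other probe). Dbp, a clock output factor, was at 0.94 on the log2 scale, Per2 at 0.12, Nr1d1 at 0.42 and Arntl at -0.62. No source used here gives the time of day of sampling, and its part in these differences was not tested.

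Genes that answer to feeding, insulin and glucocorticoid held the gene with the largest fold among the lower genes detected on both arrays. Mfsd2a, a lipid transporter induced by fasting in liver and brown fat, had 206 at 8.5 Gy and 1020 at 0 Gy (8.73-fold lower). Of 30 measured genes on the fasting and insulin list, 10 were 2-fold lower and 1 higher, with a median of -0.26. Ddit4, an inhibitor of the mTOR kinase, had 165 at 8.5 Gy and 394 at 0 Gy (4.38-fold lower). Ppargc1a, a coactivator of mitochondrial genes, had 341 and 549 (2.09-fold lower), and the insulin-like growth factor gene Igf1 219 and 394 (2.63-fold lower).

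Several members of that list were lower still at 0.85 Gy. Mfsd2a had 99 at 0.85 Gy and 768 at 17 Gy, Noct 180 and 957, and Ppargc1a 156 and 458. Irs2, an insulin receptor substrate, had 682 at 8.5 Gy and 1018 at 0 Gy, at -0.86 on the log2 scale, beside 164 at 0.85 Gy. Of 20 measured glucocorticoid and metallothionein genes, 5 were lower and 0 higher, and those 5 were Ddit4, Per1, Cdkn1a, Errfi1 and Angptl4. Over that list 16 of 20 were below 0, with a median of -0.41. Tsc22d3, the leucine zipper protein Gilz, was at -0.49, the kinase gene Sgk1 at -0.35, the metallothionein gene Mt2 at -0.47, Fkbp5 at -0.27, and Mt1, a metal-binding protein, had 13612 at 8.5 Gy and 10790 at 0 Gy, at -0.07. The fasting gene Pck1 was at 0.07.

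Genes that p53 activates after DNA damage did not stand together. Of 27 measured, 1 was 2-fold higher and 2 lower, with a median of 0.08, and of 34 DNA repair and checkpoint genes none was 2-fold apart, with a median of 0.01. Cdkn1a, the p21 inhibitor of the cell cycle, had 382 at 8.5 Gy and 713 at 0 Gy (2.43-fold lower, with -0.70 and -1.30 at its other probes). Mdm2, the ligase that degrades p53, had 745 and 751 in that order, at -0.24. Ccng1 was at 0.52 with 2040 at 8.5 Gy and 1191 at 0 Gy (0.97 and 0.50 at its other probes), Gadd45a, a growth arrest gene, at 0.97, and Bbc3, the apoptosis inducer Puma, at 0.50. The higher gene was Ak1, an adenylate kinase that skeletal muscle also expresses (548 at 8.5 Gy, 243 at 0 Gy).

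Fat cell genes, the bright part of both arrays, were close to equal in most cases. Of 34 measured adipocyte genes 3 were lower and 0 higher, with a median of -0.12, and of 22 brown fat genes 1 was lower, with a median of 0.04. Ucp1 was at 0.57 on the log2 scale, Adipoq at -0.15, Lep, the hormone leptin, at 0.51, Scd1, a fatty acid desaturase, at -0.16 and Fasn, the fatty acid synthase, at -0.07. The 3 lower genes were Slc7a10, a serine and glycine transporter (175 at 8.5 Gy, 587 at 0 Gy, 6.45-fold lower), Sncg, gamma-synuclein (3.22-fold lower, with -2.09 at its other probe), and Aoc3, an amine oxidase (1348 at 8.5 Gy, 2953 at 0 Gy, 2.83-fold lower).

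Among the other bright genes with a 2-fold difference, Acaa2, a mitochondrial thiolase, had 9150 at 8.5 Gy and 2988 at 0 Gy (2.36-fold higher, with 1.10, 1.24 and 0.58 at its other probes). Its value at 0.85 Gy was 9980. Sfxn1, a mitochondrial serine transporter, had 2917 at 8.5 Gy and 5437 at 0 Gy (2.44-fold lower, with -1.05 at its other probe), and Trf, the iron carrier transferrin, 1772 and 3694 (2.64-fold lower). Ckb, the brain-type creatine kinase, had 1864 at 8.5 Gy and 3479 at 0 Gy (2.37-fold lower). Serpinf1, an inhibitor of vessel growth, had 1622 and 2990 in that order (2.37-fold lower). Gpt2, a mitochondrial transaminase, was 4.42-fold lower, Ffar2, a receptor for short-chain fatty acids, 4.52-fold, Gpat3, an acyltransferase of triglyceride synthesis, 3.78-fold, and the inducible chaperone gene Hspa1a at least 2.85-fold.

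**Figure D3:**
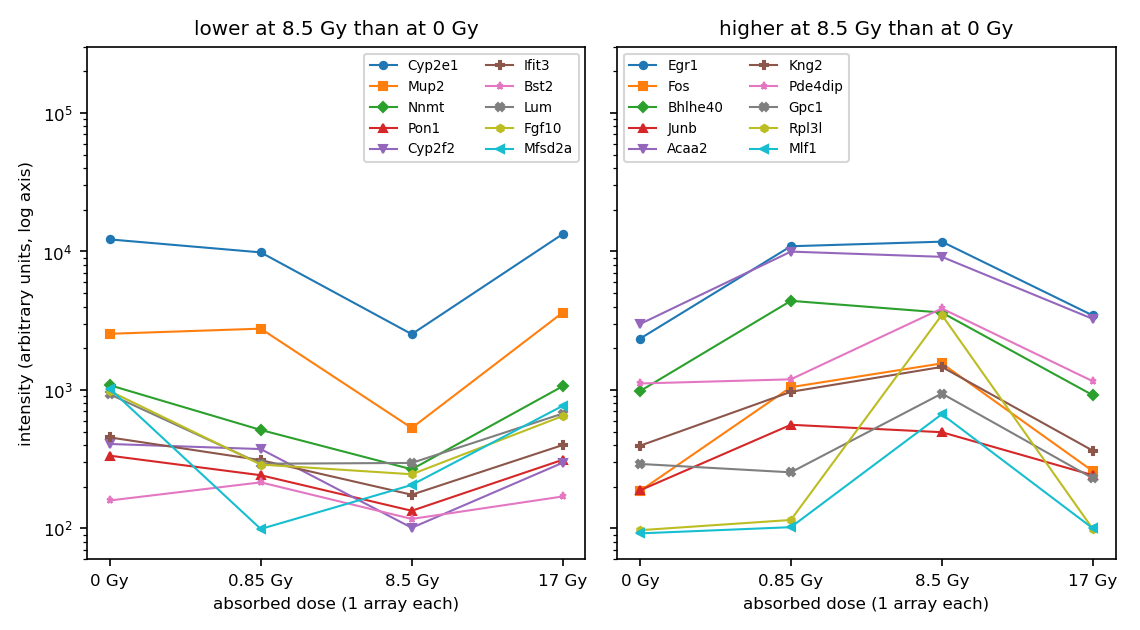
Deposited intensity with its background (log axis) of 10 genes lower and 10 genes higher at 8.5 Gy than at 0 Gy, over the 4 arrays in order of dose, 1 array each; lines join the values of 1 gene. Cyp2e1, Mup2 and Ifit3 have their lowest value at 8.5 Gy, Mfsd2a has its lowest at 0.85 Gy, and Egr1, Fos, Junb, Bhlhe40 and Acaa2 are high at both 0.85 and 8.5 Gy.

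How far the 8.5 Gy array stood from each of the other 3 is given next, as values side by side that share it. At least 2-fold above every other array were 118 of 7862 genes (1.5%), and at least 2-fold below every other array were 39 (0.496%). Of the 118, 52 lay outside the skeletal muscle lists, and of the 39 all did. The median of the interferon list was -0.46 against 0.85 Gy and -0.78 against 17 Gy, and that of the detoxification list -0.49 and -0.58. The complement list was at -0.49 against 0.85 Gy and -0.89 against 17 Gy, and MHC class I at -0.58 and -0.72. For these 4 lists the median was below 0 against each of the 3 arrays, as it was for others such as the macrophage list (-0.35 against 0.85 Gy and -0.92 against 17 Gy).

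The matrix and fibroblast lists were closer to the 0.85 Gy array. Against 0.85 Gy the collagens had a median of 0.12, the other matrix genes -0.09 and the fibroblast markers -0.07, whereas against 17 Gy they had -0.56, -0.56 and -0.51. Lum, for example, had 293 at 0.85 Gy and 675 at 17 Gy, and Fgf10 289 and 648. For these genes the 8.5 Gy level was near that at 0.85 Gy and below those at 0 and 17 Gy. The immediate early list was at 0.73 against 0.85 Gy and 0.06 against 17 Gy. The MHC class II list was at 0.40 against 0.85 Gy and -0.93 against 17 Gy.

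**Figure D4:**
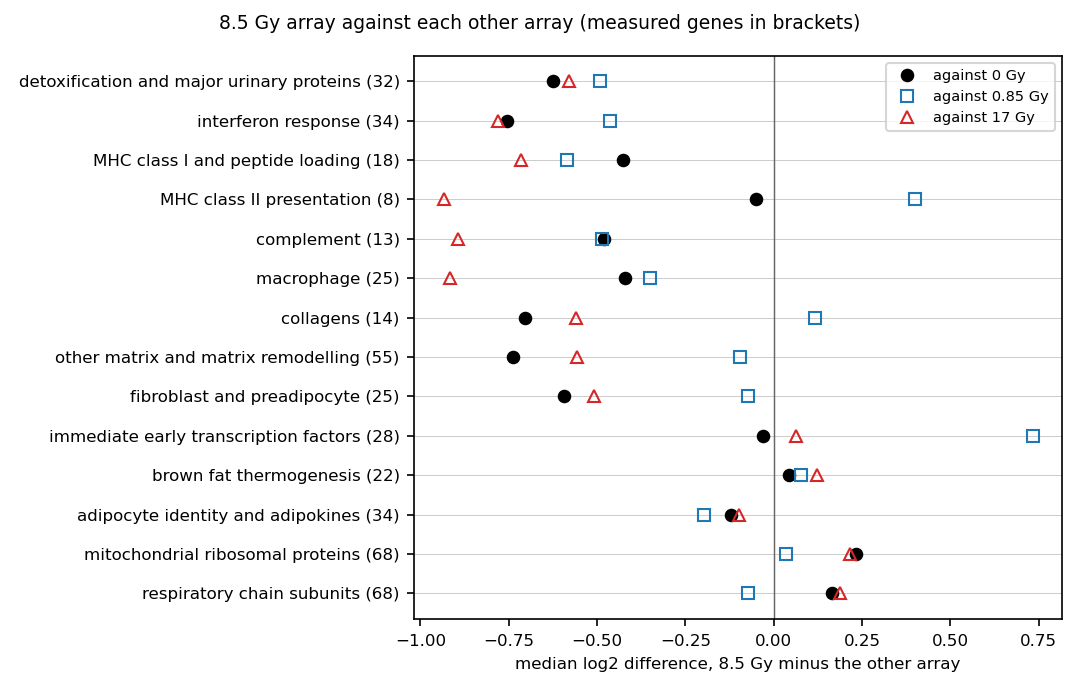
Median log2 difference of 14 gene lists, 8.5 Gy minus the 0 Gy (filled circles), 0.85 Gy (squares) and 17 Gy (triangles) arrays; the 3 values of a list share the 8.5 Gy array. The detoxification, interferon, MHC class I and complement lists lie below 0 in all 3, as do others such as the macrophage and adipocyte lists. The collagen, other matrix and fibroblast lists lie near 0 against 0.85 Gy.

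Among the genes outside the muscle lists with the largest higher values, several are also known from striated muscle. The lists are thus incomplete, and the 135 higher genes outside them include muscle genes, whose number was not counted. Rpl3l, a muscle form of a ribosomal protein, had 3481 at 8.5 Gy and 97 at 0 Gy, which was not well above background, at least 89.5-fold higher. Ky, a protein of the muscle Z-disc, had 524 at 8.5 Gy and 91 at 0 Gy (at least 12.5-fold higher), and Nrap, a nebulin-related protein, 233 and 87 (at least 4.23-fold, with 0.57 at its other detected probe). Aqp4, a water channel of brain and fast muscle fibres, was at least 2.40-fold higher, and Hhatl, expressed in heart and muscle, at least 3.89-fold. Pkia, an inhibitor of protein kinase A, had 603 at 8.5 Gy and 115 at 0 Gy (10.5-fold higher).

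Higher genes with a good signal on both arrays were fewer. Gpc1, a heparan sulfate proteoglycan, had 942 at 8.5 Gy and 292 at 0 Gy (3.39-fold higher). Pde4dip, a Golgi and centrosome protein, had 3876 and 1113 in that order (2.93-fold higher), but its other detected probe was at -0.67. Kng2, a kininogen, had 1466 at 8.5 Gy and 395 at 0 Gy (3.62-fold higher), and 969 at 0.85 Gy. Abcb4, a phospholipid transporter known from the bile canaliculus, was 3.52-fold higher, and Schip1, a protein of the nodal axon, 3.57-fold (0.63 at its other probe).

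Skeletal muscle genes stood higher on the 8.5 Gy array, and 4 of their 5 lists had medians above those of all other lists with at least 4 measured genes. Of 188 listed entries, 159 had a probe and 114 were measured, and 72 of these were 2-fold higher and 0 lower. Over 17 fast contractile markers with a probe, summed intensity was 154983 at 8.5 Gy and 5570 at 0 Gy, beside 7421 at 0.85 Gy and 6359 at 17 Gy. Of those 17, 15 were detected at 8.5 Gy and 2 at 0 Gy. Pvalb, the calcium buffer of fast fibres, had 26621 at 8.5 Gy and 83 at 0 Gy, and the skeletal actin gene Acta1 23880 and 84. The 0 Gy values were not well above background, and the fold was at least 699 for Pvalb and at least 598 for Acta1.

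Genes of the contractile, membrane and energy systems of the fibre were all represented. Of 15 measured fast contractile genes 14 were 2-fold higher, with a median log2 difference of 7.0 (6.11 with bounds), and of 28 sarcomere and cytoskeleton genes 21 were higher, with a median of 2.18 (1.70 with bounds). The giant protein gene Ttn had 2421 at 8.5 Gy and 92 at 0 Gy, at least 62.1-fold higher. Of 24 excitation and calcium genes 15 were higher, with a median of 1.46 (1.08 with bounds), among them Ryr1, the calcium release channel, at least 28.4-fold (0.64, 4.88 and 4.24 on the log2 scale at its other probes). Of 40 energy genes 21 were higher, with a median of 1.18 (0.82 with bounds). Eno3, the muscle enolase, had 4010 at 8.5 Gy and 120 at 0 Gy and was detected on both arrays (66.1-fold higher).

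Slow fibre genes were apart from the fast ones in value. Of 9 measured, 3 were 2-fold higher, with a median of 0.45 (0.22 with bounds), and Myh7, Myl2 and Tnni1 were detected on neither array. Tnnt1, slow troponin T, was at -0.77, and Tnnc1, slow and cardiac troponin C, at -0.10. The higher members were Tpm2, Mybpc1 and Actn2, and Tpm2 had 3925 at 8.5 Gy and 80 at 0 Gy (at least 99.8-fold higher), with 0.94 and 1.17 at its other probes. Myogenic factors Myod1 and Myog and the embryonic receptor gene Chrng were detected on neither array. Of 22 salivary gland markers, 2 were detected at 8.5 Gy and 2 at 0 Gy, with a summed intensity of 2660 and 2713, and no C cell or cartilage marker was detected on these arrays. What the muscle RNA on the 8.5 Gy array contributed to the differences of other gene groups was not tested.

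CArG boxes, which bind serum response factor and are known from muscle actin genes, were searched in the same kind of window, on both strands. They lay in 2 of 10 higher fast contractile genes with a window (20.0%) and in 114 of 6410 compared genes (1.78%). Among immediate early genes they lay in 3 of 26 measured ones with a window (11.5%) and in 0 of the 4 that were 2-fold higher. The promoters of the 2 fast contractile genes with a box, Acta1 and the myosin heavy chain gene Myh4, are printed. They were the higher genes of that list whose windows held it, and capitals mark the box. The Acta1 window is chr8:123894726-123895025 on the minus strand, with the box beginning 73 bases before the start site. The Myh4 window is chr11:67237562-67237861 on the plus strand, with the box at 104 bases.
Acta1: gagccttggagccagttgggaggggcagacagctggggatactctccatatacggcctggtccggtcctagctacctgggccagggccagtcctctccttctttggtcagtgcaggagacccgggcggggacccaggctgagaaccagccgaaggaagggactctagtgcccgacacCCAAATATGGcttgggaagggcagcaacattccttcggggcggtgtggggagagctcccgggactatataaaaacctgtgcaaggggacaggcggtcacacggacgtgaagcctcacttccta
Myh4: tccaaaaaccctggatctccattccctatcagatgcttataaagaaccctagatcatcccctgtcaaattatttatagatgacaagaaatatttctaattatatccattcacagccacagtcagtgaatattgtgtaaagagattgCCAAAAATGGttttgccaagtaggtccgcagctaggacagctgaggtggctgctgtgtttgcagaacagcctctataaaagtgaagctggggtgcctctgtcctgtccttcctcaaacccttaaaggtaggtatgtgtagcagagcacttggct

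**Figure D5:**
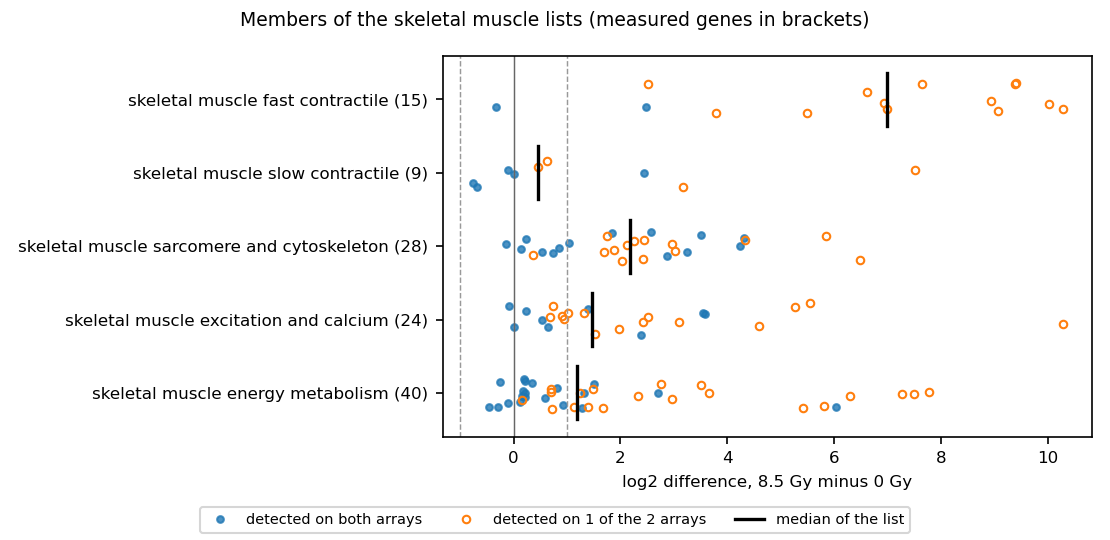
Log2 difference, 8.5 Gy minus 0 Gy, of the measured members of 5 skeletal muscle lists; filled points were detected on both arrays, open points on 1 of both, black bars are medians and dashed lines mark 2-fold. The fast contractile median is 7.0 and the slow contractile median 0.45, and no point lies beyond the 2-fold line on the lower side.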

How the data were processed

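The 4 samples were grouped by the absorbed dose in the labels, and the 8.5 Gy array was set against the 0 Gy array. Per the labels' protocols, total RNA was prepared with a kit for lipid-rich tissue, checked on a Bioanalyzer and biotin-labelled. The deposited non-normalized table gave, per the file headers, an intensity and a detection p-value for each of 26512 probes on each array, and the intensity values were inferred from their lowest values of 69 to 79 not to have had background subtracted. Median intensity was 105 on the 8.5 Gy array and 92 on the 0 Gy array, and 9864 and 9411 named probes were detected on them. A deposited normalized table held intensity values whose sorted columns were identical, and it served as an alternative. Not given in the sources used here are the scanner software and the authors' normalization tool.

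Intensities were background-corrected from the detection p-values by normexp, given an offset of 16, quantile-normalized over the 4 arrays and taken to log2 with the neqc function (limma 3.58.1, R 4.3.3). The same steps were run on simulated arrays in which bright probes were changed, as many up as down. Such arrays cannot show how changes near the background, or many changes in a single direction as in the muscle genes, are recovered. Probes were named from the platform's annotation, in which 23978 had 1 gene symbol, 0 several and 1719 none. A bound for a gene detected on 1 array set the bright value against the higher of the dim value and the lowest detected value of the dim array. No test was run, since each side was 1 array.

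The comparison, its members and the 52 gene lists were chosen with earlier results of these data known, so lists are described by counts and medians and support nothing. Named genes were the 30 largest differences in each direction outside the muscle lists with a descriptive symbol and the same direction in the deposited normalized values, the 12 brightest 2-fold genes in each direction, up to 15 in each direction that stood apart from the other 3 arrays, up to 8 members in each direction of lists that stood apart (6 for muscle lists), and a set read whatever its value. Aldh1a1, Cyp27a1, Adh1, Fmo1, Irf9, Stat2, Irf1, Ifi27, Tapbp, Psme2, Psmb8, Psmb9, Psmb10, Tap1, Tap2, Mmp9, Tsc22d3, Sgk1, Cd59a, Adgre1, Lyz2, Col4a1, Egr2, Gadd45a, Bbc3, Tnnt1 and Tnnc1, the genes at the limits and those in the closing observations were named after their values were seen. Promoter sequences came from RefSeq (GRCm38.p6), without those on chromosome 18. Alternatives changed the normalization, offset, detection limit, probe rule and fold limit.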

Additional observations from a re-analysis of the deposited data

How the results depend on the processing

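With 1 array a side no setting gives a test, and only counts, directions and medians could be compared. Beside 207 higher, 285 lower and 135 higher outside the muscle lists, the authors' deposited normalized values gave 102, 91 and 43, no background correction 84, 71 and 34, and an offset of 50 gave 117, 123 and 56, so that the lower genes no longer outnumbered the higher ones in the first and second of these. With detection on both arrays 83 were higher (64 outside muscle), and with detection on all 4 arrays 75 (60). A 1.5-fold limit gave 728, 1016 and 643, and a 3-fold limit 99, 46 and 39. The 118 genes above each other array became 65 without background correction, 33 with detection on both arrays and 26 with detection on all 4, and the 39 below became 10 in the deposited normalized values, 11 without background correction, 17 with an offset of 50 and 25 with the mean of all probes. The 179 named genes with a 2-fold difference kept their direction under all 7 other scales and probe rules tried, and between 106 (no background correction) and 175 of them stayed 2-fold apart. Kept direction says little here, because the largest of them were chosen with the same direction in the deposited normalized values. All scales also rest on the same arrays. Detection on both or all arrays removes genes by construction, and the cause of the other shifts was not tested. Of 14 lists with a median beyond 0.5 in size, every one kept its sign in each setting that gave it a value, but only 3 stayed beyond 0.5 without background correction, where the interferon median was -0.44 and the other matrix median -0.33, 4 with no detection filter, 8 in the deposited normalized values, where the detoxification, fibroblast and other matrix lists were among those under it, and 9 with an offset of 50. The neutrophil median of 1.0 became 0.38 with bounds, and with detection on both arrays the muscle energy median was 0.21 and the slow contractile median -0.10. Signal over background limits the higher side: 71 of the 135 genes outside the muscle lists were detected at 8.5 Gy only. Neqc on the 2 arrays alone, scaling to the 75th percentile, and leaving muscle probes out of the normalization left the counts of higher and lower genes within 1.5 times. The setting on the 2 arrays alone cannot give the counts against the other arrays. No paired analysis was possible because each dose has 1 array.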

Other observations

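Genes of mitochondrial translation and respiration stood slightly higher at 8.5 Gy than at 0 Gy. Of 68 measured mitochondrial ribosomal protein genes, 59 were above 0, 2 were 2-fold higher and 0 lower, and the median log2 difference was 0.23, beside -0.04 over all genes compared and -0.08 for 51 cytosolic ribosomal protein genes. Of 68 respiratory chain genes, 2 were 2-fold higher and 0 lower, with a median of 0.16. Over all genes compared 2.63% were 2-fold higher and 3.63% lower, and the counts of higher genes in both lists were near that share. Cycs, the electron carrier cytochrome c, had 663 at 8.5 Gy and 303 at 0 Gy, and Atp5pb, a subunit of ATP synthase, 3382 and 1391. Against the 0.85 Gy array, which shares the 8.5 Gy array with this comparison, the medians were 0.04 and -0.07. Pfkp, the platelet form of phosphofructokinase, was the 2-fold higher gene among 13 of glycolysis, with 761 at 8.5 Gy and 296 at 0 Gy.

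Sterol synthesis genes had a median of 0.20 over 20 measured, with 2 higher and 0 lower. Nsdhl, a sterol dehydrogenase, had 678 at 8.5 Gy and 283 at 0 Gy (2.48-fold higher). Of 9 measured erythrocyte genes 8 were above 0, and the globin probe named Hba-a1, which has a near-identical copy, had 24990 at 8.5 Gy and 11299 at 0 Gy. Proteasome genes had 0 of 32 beyond 2-fold and a median of 0.07. Among stress genes, Chac1, which degrades glutathione, had 200 at 8.5 Gy and 111 at 0 Gy (2.63-fold higher), while Psat1, of serine synthesis, had 146 and 241 (3.01-fold lower). The median of their list of 31 genes was -0.09.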
